A study of Homo sapiens with 6 samples.

Results

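Anti-apoptotic BCL2 genes and the effectors they restrain were described in an osimertinib-resistant lung cancer line and its parent. The members were the rows whose Ensembl identifier maps to BCL2, BCL2L1, BCL2L2, MCL1, BCL2A1, BAX or BAK1, which gave 7 genes of the 30330 in the tables. All 7 passed the filter on low values. The resistant group was H1975/OSI, selected from NCI-H1975 with osimertinib, an inhibitor of the mutant EGFR kinase, at doses of 0.03, 0.1, 0.3, 1 and 3 µM, given intermittently over 7 months. The control group was NCI-H1975, a human lung adenocarcinoma line in which EGFR is mutated. Each group had 3 RNA-seq libraries, which the sample titles call Drug and Control. Whether drug was present at harvest, whether the resistant line is a single clone and whether replicates were separate cultures is not given in the sources used here, so the p-values reflect the spread among these libraries, which may be technical.

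BCL2 family proteins decide whether the outer mitochondrial membrane stays intact. BAX and BAK1, the effectors, form pores through which cytochrome c leaves and caspases are switched on. BCL2, BCL-XL (from BCL2L1), BCL-W (from BCL2L2), MCL1 and BFL-1 (from BCL2A1) hold the effectors and their BH3-only activators in check. In cells that depend on mutant EGFR, blocking the kinase raises the BH3-only protein BIM, and the pro-survival proteins set how much BIM a cell tolerates.

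Values are normalized read counts, that is reads per gene divided by a factor for each library, and a gene is called lower or higher where the adjusted p is under 0.05. The libraries held 15174126 to 16276518 reads in resistant and 15813497 to 16588479 in control cells. Resistant library 1 differed most from its group, with a chi-square per gene of 10.8 and 12.1 against resistant 2 and 3, compared with 2.32 between those and 2.43 to 3.66 among controls. Leaving it out ended no call of a member or of a list gene followed singly under other settings, and the called members' values without it are given below. STAT3 and HIF1A, named below, were not followed in this way. The mitochondrial share of reads was 5.53 ± 0.178% in resistant and 6.88 ± 0.440% in control libraries (SD, n = 3 each), and its part in the results was not tested. The cell type label was checked against keratins of simple epithelia. KRT7 was at 12803 ± 1139 normalized read counts in resistant and 13355 ± 528 in control libraries (SD, n = 3 each), and KRT18 was also abundant, at 7556 ± 151 in resistant and 10013 ± 56.7 in control libraries. Of 6 epithelial markers 5 were called lower, with EPCAM at 17.6 ± 2.03 in resistant and 379 ± 21.9 in control libraries, and their part in the results was not tested.

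The windows before a RefSeq start of 3 genes are shown. Of these, 2 belong to pro-survival genes that fell and the other to BAX, an effector whose difference did not pass the test. BAK1, also an effector without a call, had a window that is not shown, so these criteria alone do not select BAX over BAK1. RefSeq windows were found for 5 of the 7 members, with none for MCL1 and BCL2L2. Each covers the 250 bases before a RefSeq transcription start on GRCh38.p14, written 5′ to 3′ on the strand of the gene, and capitals mark motifs found by a search of both strands.
BCL2L1, outer start (chr20:31723964-31724213, minus strand): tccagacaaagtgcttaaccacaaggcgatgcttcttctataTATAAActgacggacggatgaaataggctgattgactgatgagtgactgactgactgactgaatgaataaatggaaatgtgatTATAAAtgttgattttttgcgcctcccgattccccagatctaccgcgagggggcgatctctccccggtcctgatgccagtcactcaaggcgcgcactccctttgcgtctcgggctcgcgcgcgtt
BCL2A1 (chr15:79971197-79971446, minus strand): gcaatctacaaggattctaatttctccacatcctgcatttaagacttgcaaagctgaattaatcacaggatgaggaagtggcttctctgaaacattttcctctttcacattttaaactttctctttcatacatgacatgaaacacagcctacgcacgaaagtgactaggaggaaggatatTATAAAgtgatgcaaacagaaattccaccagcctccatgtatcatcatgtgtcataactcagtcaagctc
BAX (chr19:48954625-48954874, plus strand): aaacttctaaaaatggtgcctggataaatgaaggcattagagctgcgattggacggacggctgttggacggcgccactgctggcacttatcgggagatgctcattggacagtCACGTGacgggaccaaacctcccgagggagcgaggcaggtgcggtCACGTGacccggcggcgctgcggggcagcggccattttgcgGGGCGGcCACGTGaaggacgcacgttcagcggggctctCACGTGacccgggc
RefSeq and the deposited gene spans set the start differently, so that 26 bases of the BCL2L1 window, all 250 of the BCL2A1 window and 60 of the BAX window lie inside the deposited span of their gene. The capitals in the BCL2L1 and BCL2A1 windows are the TATA box letters TATAAA, which 10.7% of 35116 such windows hold on either strand. In the BCL2L1 window they begin 208 and 125 bases before the start, and in the BCL2A1 window 70 bases before it. The BAX window has the E-box CACGTG at 4 places, beginning 138, 93, 45 and 14 bases before the start. MYC and related factors can bind these letters. At least 1 E-box was found in 6.34% of windows, and 4 or more in 5 of the 35116. The cut of 4 was the number in the BAX window itself, which is therefore 1 of those 5. No such count was made for the other motifs. The BAX window also has the GC box GGGCGG at 52 bases before the start, a motif present in 42.6% of windows. The remaining motifs searched were AP-1 (TGANTCA, in 6.57% of windows), the cAMP response element (TGACGTCA, 1.65%), ETS (CCGGAAG, 8.52%) and the NF-kB motif (9.96%). None of these 4 occurs in the 3 windows shown. The inner BCL2L1 start and BCL2 had none of the 7 motifs, and BAK1 had the GC box at 2 places.

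Transcripts of 3 pro-survival genes, MCL1, BCL2L1 and BCL2A1, were lower in the resistant line. No member was higher by limma, nor at an unadjusted p under 0.05, nor by edgeR or DESeq2 (0 of 7 in each). The differences of BCL2L2, BCL2 and both effectors, BAX and BAK1, did not pass the test. With limma-trend and Benjamini-Hochberg adjustment over 24560 genes tested, 42.9% of the members were called lower, beside 21.1% of all genes tested called lower and 20.4% called higher. The median log2 fold change was -0.19 over the 7 members and 0.01 over all genes tested. The same 3 members were those whose groups did not overlap, with every resistant library below every control library, as was true of 25.4% of all genes tested. The opposite order, with every resistant library above, held for 24.7% of all genes tested and for no member. In bulk libraries fewer cells with a transcript and less transcript per cell cannot be told apart.

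MCL1 restrains BAK1 and BIM, and both its mRNA and its protein are known to turn over fast. The gene (ENSG00000143384) lies on chromosome 1 (GRCh38, as all positions here) from 150574551 to 150579738 on the minus strand. MCL1 was at 6698, 6955 and 6952 normalized read counts in the resistant libraries, and at 9292, 9202 and 9843 in the control libraries. All resistant libraries were low and close to each other, and the groups were separated by more than the spread within either. The mean was 6868 ± 147 in resistant and 9446 ± 347 in control cells (SD, n = 3 each), so that the resistant level was 72.7% of the control level. MCL1 fell by 0.46 on the log2 scale (SE 0.06, 95% interval -0.58 to -0.34, limma adjusted p = 7.42e-07). Without resistant library 1 the log2 fold change was -0.44 (limma adjusted p = 7.59e-11).

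BCL2L1 gives BCL-XL, which binds both effectors, and by alternative splicing the shorter, pro-apoptotic BCL-XS, which gene totals cannot separate. The gene (ENSG00000171552) lies on chromosome 20 from 31664452 to 31723989 on the minus strand. BCL2L1 was at 916.8, 776.2 and 802.0 normalized read counts in the resistant libraries, and at 1241, 1266 and 1242 in the control libraries. Resistant library 1 was the highest of its group, nearest to the controls, which lay within a narrow range. The mean was 831.7 ± 74.8 in resistant and 1250 ± 13.8 in control cells (SD, n = 3 each), and the resistant level was 66.5% of the control level. BCL2L1 fell by 0.59 on the log2 scale (SE 0.08, 95% interval -0.75 to -0.43, limma adjusted p = 7.34e-07), and by 0.66 without resistant library 1 (limma adjusted p = 1.70e-11). On the opposite strand, the noncoding gene ABALON covers 1424 of the 3314 exon bases of BCL2L1 in GENCODE 29. ABALON was itself called lower, at a mean of 3.87 normalized read counts in resistant and 22.1 in control libraries. Whether strand was used in counting is not given in the sources used here, so reads from the shared bases cannot be assigned with certainty.

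BCL2A1 gives BFL-1, a pro-survival protein best known from blood cells and as an NF-kB target. The gene (ENSG00000140379) lies on chromosome 15 from 79960889 to 79971446 on the minus strand and overlaps no other gene in GENCODE 29. BCL2A1 had 2.04, 11.1 and 2.96 normalized read counts in the resistant libraries, from 2, 12 and 3 reads. In the control libraries it had 54.4, 36.4 and 48.2, from 53, 35 and 50 reads. The 3 control libraries were all higher, while resistant library 2 held most of the reads of its group and libraries 1 and 3 were at or below the floor of 3 reads. The mean was 5.36 ± 4.97 in resistant and 46.3 ± 9.17 in control cells (SD, n = 3 each). Summed reads were 17 in resistant and 138 in control libraries, a resistant level of 11.9% of control with a Clopper-Pearson 95% interval of 6.74 to 19.8% that covers counting error only. BCL2A1 fell by 3.15 on the log2(value + 1) scale (SE 0.43, 95% interval -4.04 to -2.26, limma adjusted p = 2.29e-06). Without resistant library 1 the log2 fold change was -2.76, and without resistant library 2 it was -3.75. Among 3 measured of 6 leukocyte markers, CD14 was lower, and the summed level was 313 to 364 normalized read counts in resistant and 433 to 438 in control libraries. PTPRC, CD3E and MS4A1 were looked up but not found among the genes with a symbol. The part of leukocyte transcripts in the BCL2A1 difference was not tested.

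**Figure D1:**
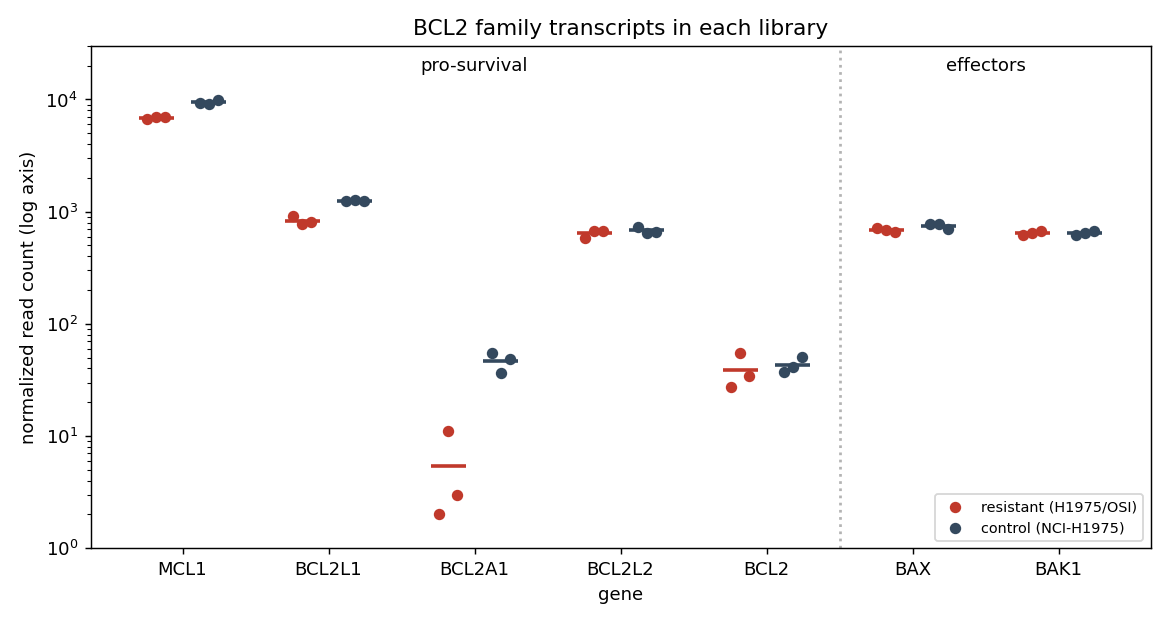
Normalized read count (log axis) of the 7 genes in each library, with 3 resistant libraries as red points left of 3 control libraries in dark blue, and a bar at each group mean. The groups are separate for MCL1, BCL2L1 and BCL2A1 and overlap for BCL2L2, BCL2, BAX and BAK1.

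BCL2L2 and BCL2, the other pro-survival genes, gave no call. BCL2L2 (ENSG00000129473, chromosome 14, 23298790 to 23311759, plus strand) encodes BCL-W, and had 579, 678 and 668 normalized read counts in resistant libraries, against 733, 651 and 662 in control libraries. Resistant 1 was the lowest and control 1 the highest of the 6, and the other resistant libraries lay above the other controls, against the sign of the mean difference. Its log2 fold change was -0.09 (95% interval -0.26 to 0.09, limma adjusted p = 0.442). BCL2L2 shares 813 of its 4189 exon bases with the readthrough gene BCL2L2-PABPN1, which had a mean of only 7.76 normalized read counts in resistant and 3.41 in control libraries. It shares 206 with PPP1R3E on the opposite strand, which was called higher, at a mean of 200 in resistant and 145 in control libraries. Since strand use in counting is not given, reads from these shared bases cannot be assigned with certainty.

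BCL2 (ENSG00000171791, chromosome 18, 63123346 to 63320128, minus strand), the founding gene of the family, was scarce in this line. It had 27.5, 55.4 and 34.5 normalized read counts in resistant libraries, against 37.0, 41.6 and 51.1 in control libraries. Resistant library 1 was the lowest and resistant library 2 the highest of all 6. The log2 fold change was -0.19 with a 95% interval of -0.72 to 0.35 (limma adjusted p = 0.609), so a change of the size seen for BCL2L1 lies within the interval. The libraries held 27 to 60 reads of BCL2. Without resistant library 1 the sign turned, to 0.030.

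Neither effector gave a call. BAX (ENSG00000087088, chromosome 19, 48954815 to 48961798, plus strand), which moves from the cytosol to mitochondria when activated, had 709, 683 and 664 normalized read counts in resistant libraries, against 783, 771 and 702 in control libraries. Resistant library 1 lay just above control library 3, and the other resistant libraries lay below all controls. The mean was 685.2 ± 22.5 in resistant and 752.0 ± 44.1 in control cells (SD, n = 3 each), with a log2 fold change of -0.13 (95% interval -0.29 to 0.03, limma adjusted p = 0.189). BAK1 (ENSG00000030110, chromosome 6, 33572547 to 33580293, minus strand) resides on the outer mitochondrial membrane, and had 622, 641 and 670 normalized read counts in resistant libraries, against 616, 646 and 678 in control libraries. The groups covered almost the same range. The log2 fold change was -0.01, and its 95% interval of -0.17 to 0.16 holds neither the fall of MCL1 nor that of BCL2L1. The processed pseudogene BAK1P1 had a mean of 9.77 normalized read counts in resistant and 7.48 in control libraries, so few reads were placed on that copy.

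The calls of BAX and BCL2L2 depended on how libraries were scaled. Setting the median of tested genes equal across libraries shifted the median log2 fold change over all genes by -0.13. Among all calls, 35.8% were then higher, compared with 49.1% as deposited. With this centring BAX was called lower at -0.27 (limma adjusted p = 0.00851) and BCL2L2 at -0.22 (limma adjusted p = 0.047), which made 5 members lower beside 27.1% of all genes tested. MCL1 at -0.59, BCL2L1 at -0.72 and BCL2A1 at -3.29 kept their direction and call there. BAK1 was at -0.14 under that scaling and at 0.058 with quantile normalization, with no call in either.

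**Figure D2:**
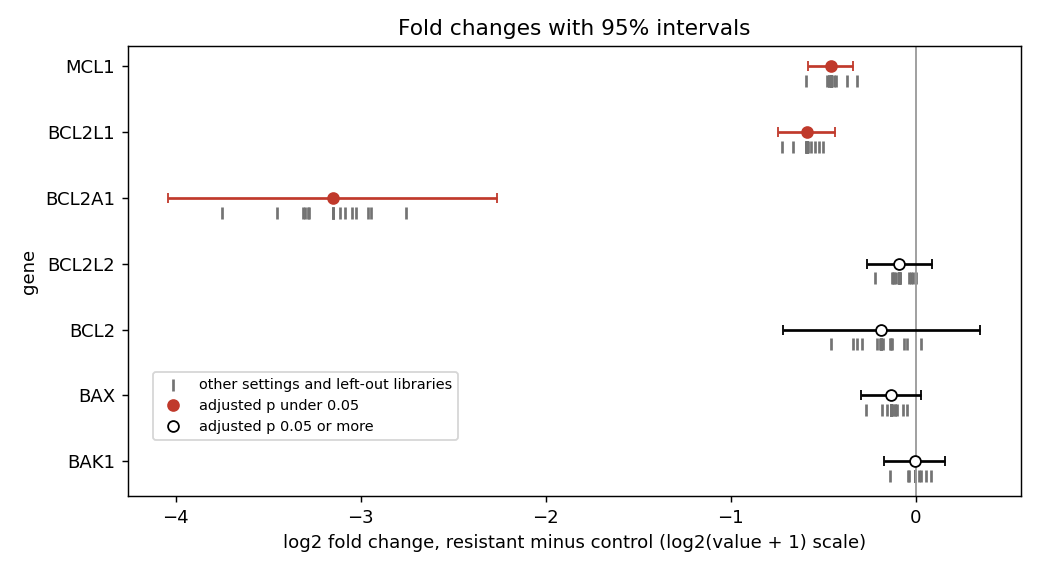
Log2 fold change, resistant minus control, of each gene (circle) with its 95% limma interval, and below it the values under every other setting and with each library left out (grey ticks). MCL1, BCL2L1 and BCL2A1 (filled) lie left of 0 with all their ticks, while the ticks of BAK1, BCL2L2 and BCL2 reach or cross 0.

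Levels of different genes were compared as normalized reads per kilobase of the deposited gene length. MCL1 was the most abundant member in both groups, at 1571 ± 33.7 in resistant and 2161 ± 79.4 normalized reads per kilobase in control cells (SD, n = 3 each). Its lowest library was above the highest library of any other member in each group. In control cells the order after MCL1 was BCL2L1 (377.1), BAK1 (292.5), BAX (290.7), BCL2L2 (162.8), BCL2A1 (42.5) and BCL2 (3.67), where BAK1 and BAX did not differ beyond their spread. In resistant cells BCL2L1, at 251.0, came after BAK1 (291.2) and BAX (264.9), and its range overlapped that of BAX. It was followed by BCL2L2 (153.2), BCL2A1 (4.92) and BCL2 (3.33), where the last pair overlapped. This change of order depended on the length used, since per kilobase of coding sequence BCL2L1 came second to MCL1 in both groups, at 1190 in resistant and 1788 in control cells.

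The sum of the 5 pro-survival genes was lower in the resistant line, and the sum of the effectors was lower by far less. Summed pro-survival levels were 1952, 2002 and 1998 normalized reads per kilobase in resistant libraries, against 2729, 2679 and 2833 in control libraries. Summed effector levels were 555, 554 and 559 in resistant libraries, against 581, 590 and 578 in control libraries. Both sums were lower in every resistant library, the first by a mean of 763 and the second by 27.1. Their ratio was 3.51, 3.62 and 3.57 in resistant libraries, and 4.69, 4.54 and 4.90 in control libraries. MCL1 made up 79.2 ± 0.595% of the pro-survival sum in resistant and 78.7 ± 0.786% in control cells, and BCL2L1 12.7 ± 1.33% in resistant and 13.7 ± 0.512% in control cells. Without MCL1 the ratio was 0.742 ± 0.014 in resistant and 1.01 ± 0.032 in control cells (SD, n = 3 each). The share of BCL2A1 was 0.247 ± 0.227% in resistant and 1.55 ± 0.293% in control cells, lower in every resistant library. The share of BCL2L2 was 7.72 ± 0.551% in resistant and 5.93 ± 0.433% in control cells, higher in every resistant library. Per kilobase of coding sequence the ratio without MCL1 was 1.14 in resistant and 1.43 in control cells, so its position relative to 1 depended on the length used. The MCL1 share was then 73.5% in resistant and 74.3% in control cells, the opposite order. These are ratios of mRNA, and protein data were not analysed here.

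Set against single effectors, BCL2L1 to BAX was 1.01, 0.887 and 0.943 per kilobase in resistant libraries, and 1.24, 1.28 and 1.38 in control libraries. Every resistant library was below every control library. MCL1 to BAK1, a pair that binds directly, was 5.45, 5.49 and 5.25 in resistant libraries, and 7.63, 7.20 and 7.34 in control libraries, again without overlap. Of the 10 pairs of a pro-survival gene with an effector, the 6 that contain MCL1, BCL2L1 or BCL2A1 did not overlap between groups. Since these 3 genes were already separate between groups and neither effector was called, the pairs restate that result and add no separate evidence. Among single genes, 25.4% of all tested had every resistant library lower, and no such share was computed for pairs of genes. Exact two-sided permutation tests of their log2 ratios each gave p = 0.1, the smallest that 3 libraries against 3 allow. The pairs that contain BCL2L2 or BCL2 overlapped, with exact two-sided permutation p from 0.5 to 0.9.

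**Figure D3:**
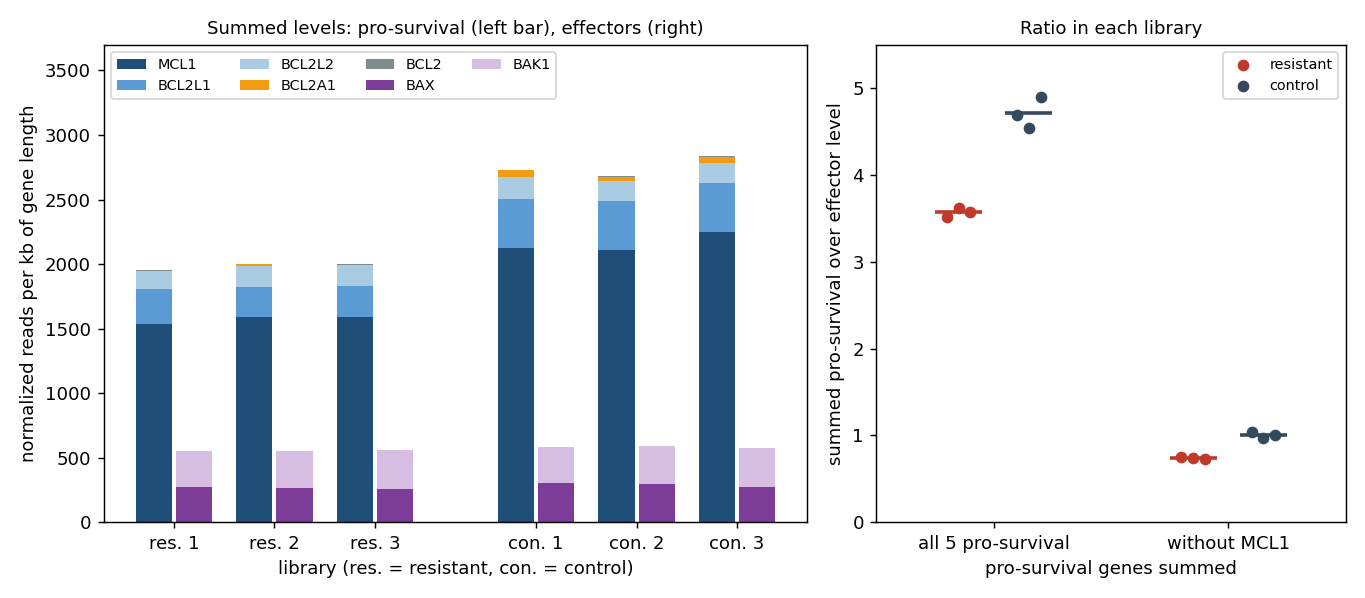
Left, normalized reads per kilobase of gene length in each library, summed over pro-survival genes (left bar) and effectors (right bar), with colours for genes. Right, the ratio of these sums in each library with group means as bars, for all 5 pro-survival genes and without MCL1; resistant libraries (red) lie below control libraries (dark blue) in both.

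Neighbouring genes on the chromosome were read beside each member, as the next tested coding gene on each side and as 10 on each side. Of all genes tested, 21.1% were called lower and 20.4% higher, and whether any window departed from these shares was not tested. BCL2A1 lay below all of its 20 neighbours, which had a median log2 fold change of 0.84, with 9 called higher and 1 lower and a lowest value of -0.62, beside -3.15 for BCL2A1. The gene next to it on one side, ST20, rose by 1.08 on the log2 scale, and ZFAND6 on the other was at -0.03 with no call. Around BCL2L1 the median was -0.25, with 11 neighbours lower and 7 higher, between TPX2, a spindle assembly factor that fell by 0.98, and ID1, an inhibitor of basic helix-loop-helix factors that rose by 0.26. The ID1 call was lost without resistant 2 (0.18) or control 2 (0.24), and with median centring (0.12). Around MCL1 the median was -0.03, with 8 lower and 3 higher, and the flanking genes were ENSA, which fell by 0.40, and ADAMTSL4, at 0.17 with no call. Medians around BCL2, BCL2L2, BAX and BAK1 were -0.21, 0.28, 0.27 and -0.07. Around BCL2, PHLPP1 and KDSR both fell, by 0.56 and 0.33. The neighbours of BAX, FTL (-0.03, called lower at -0.16 without resistant 1) and DHDH (0.67), gave no call. Beside BAK1, ITPR3 was called lower (-0.17), a call lost without resistant 2 (-0.15), resistant 3 (-0.15), control 1 (-0.13) or control 2 (-0.15), and with quantile normalization (-0.083). PPP1R3E, which overlaps BCL2L2 on the opposite strand, rose by 0.47.

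**Figure D4:**
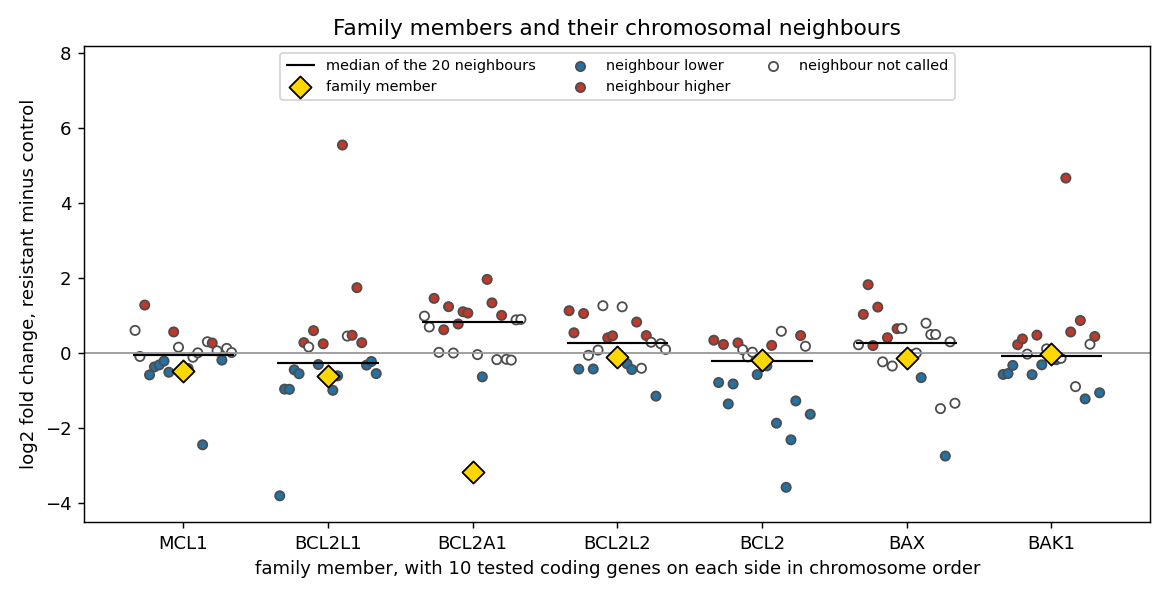
Log2 fold change, resistant minus control, of each family member (yellow diamond) and of the 10 tested coding genes on each side of it in chromosome order (circles, filled blue where called lower and red where called higher), with a line at the neighbours' median. The BCL2A1 diamond at -3.15 lies below all of its neighbours, whose median is 0.84.

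The coding gene whose level over the 6 libraries was most like that of each member, by Pearson's r of log2(value + 1) among 13221 genes, is given as a description, since the libraries fall into 2 groups. For MCL1 it was ABRAXAS2 (r = 0.9996), for BCL2L1 CHST15 (r = 0.9989) and for BCL2A1 HEATR5B (r = 0.998), all of which were called lower. For BAX it was AP2A1 (r = 0.995), with a log2 fold change of -0.17. For BCL2L2, BCL2 and BAK1 it was XPC (r = 0.995), KCNQ5 (r = 0.983) and ASB8 (r = 0.990), none of which was called. The AP2A1 call was lost in each fit without resistant 2 or 3 or control 1 or 2, with quantile normalization (-0.096), with a pseudocount of 0.1 and by DESeq2.

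BH3-only genes, whose proteins are the ligands of the family, fell in 4 of 8 cases and rose in 2, and their median log2 fold change was -0.44. For this and every list below, the shares among all genes tested were 21.1% called lower and 20.4% called higher. Whether any list departed from these shares was not tested. BCL2L11, which encodes BIM, was at 297.4 ± 50.3 in resistant and 620.3 ± 63.7 normalized read counts in control cells (SD, n = 3 each, limma adjusted p = 1.01e-07). PMAIP1, whose product NOXA binds MCL1, was at 875.9 ± 55.8 in resistant and 1539 ± 87.1 in control cells (SD, n = 3 each, limma adjusted p = 2.95e-09). Both were lower in all resistant libraries, as was MCL1 itself. BID (log2 fold change 0.28), which links death receptors to mitochondria, and BAD (0.32), which kinases of survival pathways restrain, both rose. Median centring ended both calls, and the BAD call was also lost without resistant 2 or control 3. The count of BH3-only genes called lower was 2 without control 1 and 2 without control 3. Among 6 other genes with BCL2 homology (median 0.02), BCL2L12 fell by 0.49, and BOK, an effector-like member, was at -0.01 with no call.

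Partners of the family on the outer mitochondrial membrane fell in 5 of 9 cases and rose in 1, with a median log2 fold change of -0.23. VDAC1, the main channel of that membrane, was at 3593 ± 248 in resistant and 6329 ± 253 normalized read counts in control cells (SD, n = 3 each, limma adjusted p = 2.94e-10). TOMM22, an import receptor, was at 579.2 ± 15.5 in resistant and 1012 ± 63.4 in control cells (SD, n = 3 each). VDAC2, which binds BAK1, was at -0.03 with no call. FKBP8, which anchors BCL2 at mitochondria, was the member that rose, by 0.28, a call that median centring ended.

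Downstream of the pore, 2 of 8 genes fell and 2 rose, beside 21.1% of all genes tested called lower and 20.4% called higher. The median log2 fold change of the list was 0.18. CYCS, the cytochrome c gene, was at 1823 ± 210 in resistant and 3555 ± 118 normalized read counts in control cells (SD, n = 3 each), a log2 fold change of -0.97 (limma adjusted p = 1.92e-10). APAF1, the scaffold of the apoptosome, rose by 0.66 (limma adjusted p = 5.34e-06). Among 6 inhibitor of apoptosis genes (median 0.03), BIRC5 (survivin, which peaks in mitosis) fell by 0.69 and BIRC6 by 0.38, while BIRC2 and BIRC3, which act in NF-kB signalling, rose by 0.46 and 0.27. Median centring ended the BIRC3 call. XIAP, the direct caspase inhibitor, was at 0.05 with no call.

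Genes for proteins that set the stability of MCL1 protein were listed next. Of 8, 3 fell and 0 rose by limma-trend, the median log2 fold change was -0.14, and 0 were higher at an unadjusted p under 0.05. With quantile normalization or edgeR on library totals 1 was higher. The ubiquitin ligase HUWE1 (log2 fold change 0.10) and the deubiquitinase USP9X (0.05) gave no call. GSK3B, a kinase that marks MCL1 for degradation, fell by 0.24 and BTRC, a ubiquitin ligase receptor, by 0.33. The count called lower was 5 with median centring, 0 with limma without trend and with edgeR on library totals, and 1 without control 3. The BTRC call was lost without resistant 2 (-0.28) or control 3 (-0.30).

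Regulators of BCL2L1 splicing fell in 7 of 10 cases, with a median log2 fold change of -0.41 beside 0.01 over all genes tested. SRSF1, which favours the BCL-XL splice site, was at 704.0 ± 52.9 in resistant and 1382 ± 53.1 normalized read counts in control cells (SD, n = 3 each), and HNRNPF, which favours BCL-XS, fell by 0.65. Regulators known to act in either direction were lower, and the ratio of the isoforms was not measured. SF3B1, a core spliceosome subunit, was the member that rose, by 0.25, a call that median centring ended.

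Transcription factors known to act on members changed in both directions, with 7 of 13 higher and 4 lower and a median of 0.20. NFKB2, an NF-kB subunit, was at 3614 ± 307 in resistant and 2626 ± 201 normalized read counts in control cells (SD, n = 3 each). It was called higher (limma adjusted p = 1.20e-05). The NF-kB target BCL2A1 fell in the same libraries, and the part of NF-kB activity in that fall was not tested. STAT5B, an activator of BCL2L1, fell by 0.41, and MYC, which binds E-boxes, by 0.28. On the same list STAT3 was called higher (log2 fold change 0.29) and HIF1A lower (-1.51). STAT3 and HIF1A were not followed singly under other settings or with libraries left out. The count of factors called higher was 4 without control 2 and 3 with median centring.

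**Figure D5:**
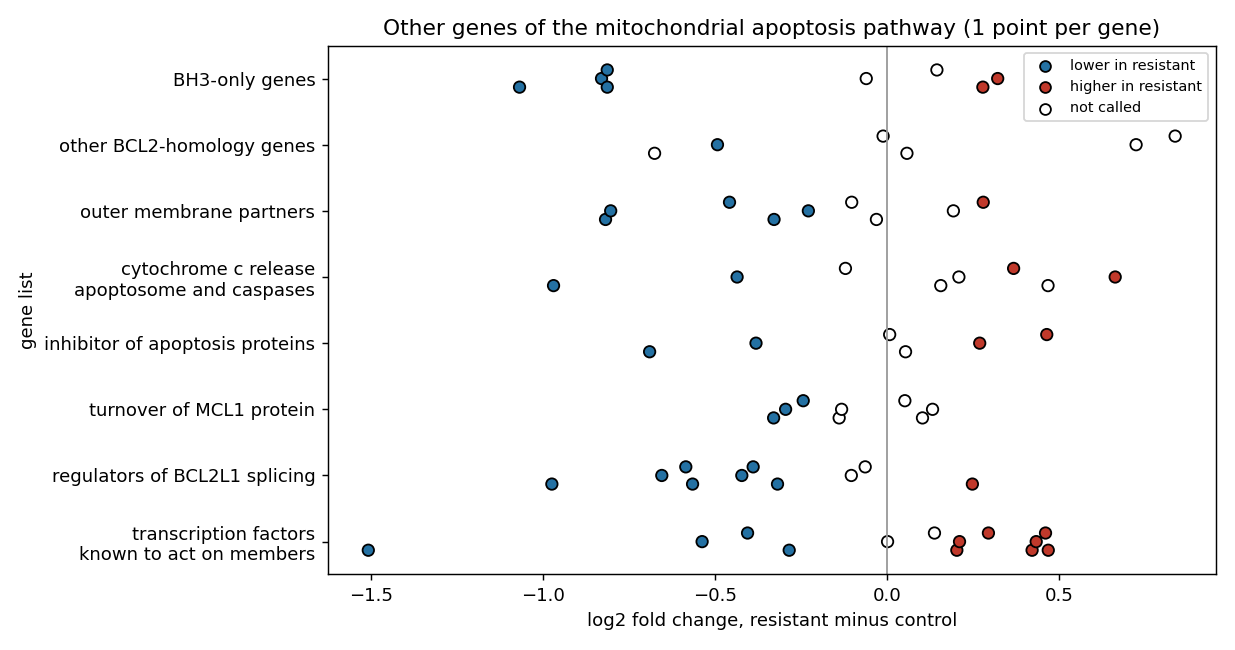
Log2 fold change, resistant minus control, of each gene in 8 lists around the BCL2 family, 1 point per gene, filled blue where lower and red where higher at an adjusted p under 0.05. Splicing regulators lie mostly left of 0 (7 of 10 lower), while transcription factors lie on both sides (7 higher, 4 lower). Of all genes tested, 21.1% were called lower and 20.4% higher.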

How the data were processed

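The authors deposited a signal value per Ensembl gene and library, on GRCh38 per the submitters' processing notes; which tools aligned, counted and scaled the reads is not given in the sources used here. All values (100%) were whole multiples of 1 number per library within 0.001 reads, so they are read counts divided by a size factor, called normalized read counts. Values were analysed as log2(value + 1) for 24560 genes that reached 1 in at least 3 libraries, with limma-trend (limma 3.58.1, R 4.3.3, robust empirical Bayes), two-sided, Benjamini-Hochberg adjustment over all genes tested and a threshold of 0.05. Alternatives ran on recovered reads with edgeR 4.0.16, limma-voom or DESeq2 1.42.0, or used quantile normalization, median centring, other filters and pseudocounts, the replicate block and each library left out. The fits were also run on simulated data, and the outcome is not reported here. Ensembl identifiers were given symbols by a lookup table, for 30078 of 30330 genes; spans of the members equal those in GENCODE 29. Members and gene lists were chosen with earlier results of these data known. Named genes were the 7 members, the 2 with the smallest adjusted p in each direction of each list, the flanking tested coding genes and the most correlated gene of each member; some of these are not reported here. Other genes named (ABALON, BOK, BCL2L2-PABPN1, BAK1P1, VDAC2, XIAP, HUWE1, USP9X, STAT3, HIF1A and the markers) were chosen after their values were seen. Of the endothelial markers 1 of 4 was higher and 1 lower, and of 3 measured fibroblast markers 2 were higher.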

Additional observations from a re-analysis of the deposited data

How the results depend on the processing

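MCL1, BCL2L1 and BCL2A1 kept their direction and their call under all 17 alternatives, with log2 fold changes of -0.59 to -0.32, -0.72 to -0.50 and -3.75 to -2.76 and adjusted p up to 0.0118, 0.0105 and 0.0145. With median centring, 5 members were lower, adding BAX (-0.27) and BCL2L2 (-0.22). Signs turned, without a call, for BCL2L2 with edgeR and library totals (0.0033), and for BAK1 there (0.082) and with quantile normalization (0.058). With libraries left out in turn, BCL2 ran from -0.46 to 0.030 and BAK1 from -0.041 to 0.029. The cause was not tested. With the replicate block, 5172 genes were lower and 5003 higher, against 5194 and 5010 without it, and no member's call changed. Same-numbered libraries had correlations of deviations of -0.015, 0.0053 and 0.020, and different-numbered libraries had -0.034 to 0.024. These values gave no sign of pairing by number, but 3 libraries per group cannot exclude it. On coding length the ratio of summed pro-survival to effector levels was 4.31 in resistant and 5.58 in control cells, and on gene length 3.57 in resistant and 4.71 in control cells. Among other calls, limma without trend ended those of BID, BAD, BIRC3, FKBP8, SF3B1, GSK3B, BTRC, ID1, PHLPP1, ITPR3, AP2A1 and HEATR5B, and edgeR with library totals those of GSK3B, BTRC, ITPR3, AP2A1 and HEATR5B. BCL2 and BCL2A1 rest on few reads.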
